A study of Homo sapiens with 6 samples.

Results

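Described here, at the level of mRNA only, are 10 genes that encode kinases and core effectors of the integrated stress response. They were chosen by name, as the rows of the gene table whose Ensembl identifiers map to the eIF2alpha kinases EIF2AK1, EIF2AK3 and EIF2AK4, the transcription factors ATF4, DDIT3 and ATF3, the ATF4-dependent genes TRIB3 and CHAC1, and the phosphatase subunits PPP1R15A and PPP1R15B. The rule uses no measured value, but the members and the related gene lists below were chosen with earlier results of these data known. Counts over them are therefore a description. All 10 were found among the 40295 identifiers of the table and all 10 were among the 16580 genes that passed the filter on low counts.

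RNA-seq was performed in HDQ-P1 cells, an established human breast cancer line, so that every library comes from a single line. The 3 treated samples received 1 μM Y-320, an immunomodulatory small molecule that the study examined for raising aminoglycoside-induced readthrough of premature stop codons, for 48 h, and the 3 other samples were untreated. No source used here says that solvent was given to the untreated cells, so the compound and its solvent cannot be told apart. The labels number the replicates of each condition 1 to 3 and do not say whether they were separate cultures, so p-values measure only the spread between these samples, which may be technical.

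The libraries held 21045401 to 22740535 estimated counts, and 1 count in a library corresponded to 0.0440 to 0.0475 CPM (counts per 1000000 counts of the library). All members were well above the level that a count of 0 to 3 allows: the lowest value of any member in any library was 71 counts. These depths cover counting error only. Epithelial markers were abundant, with summed levels of 7321 to 7633 CPM in untreated and 4538 to 4570 CPM in treated libraries, and 4 of the 5 were lower with Y-320, among them KRT8, which fell by 1.02 on the log2 scale, while EPCAM was higher. The 4 fibroblast markers summed to 196.8 to 225.6 CPM without and 110.0 to 123.9 CPM with Y-320 and 3 of them were lower. The 3 endothelial markers summed to 17.5 to 18.9 and 13.8 to 18.0 CPM, with PECAM1 higher and CDH5 lower, and the 3 leukocyte markers to 0.726 to 1.09 and 0.716 to 0.998 CPM, with CD3E at no more than 3 counts in any library. The part of these markers in the values below was not tested.

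In the integrated stress response, kinases that sense different stresses phosphorylate the alpha subunit of the translation initiation factor eIF2. EIF2AK1 (HRI) responds to heme shortage and mitochondrial stress, EIF2AK3 (PERK) to unfolded protein in the endoplasmic reticulum, and EIF2AK4 (GCN2) to uncharged tRNA. Phosphorylated eIF2 slows general translation while the ATF4 mRNA, through its upstream open reading frames, is translated more, and ATF4 then switches on genes of amino acid supply and of the response itself. DDIT3 (CHOP) and ATF3 are transcription factors downstream of ATF4, TRIB3 is a pseudokinase that restrains ATF4, and CHAC1 degrades glutathione. PPP1R15A (GADD34) and PPP1R15B (CReP) bring protein phosphatase 1 to phosphorylated eIF2 and so close the loop, the first as an induced and the second as a constitutive subunit. RNA-seq measures neither phosphorylation nor translation of these genes.

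The regulatory sequences below are shown because ATF4 works largely through promoter elements in its target genes. The windows from 250 bases before to 50 bases after each transcription start, taken from RefSeq on GRCh38.p14, were matched for 9 of the 10 members in 14 windows (not EIF2AK1). On both strands they were searched for TGATGNAA, the core of the C/EBP-ATF response element (CARE) that ATF4 dimers bind, and for TGACGTCA, the palindromic cAMP response element (CRE). No string of letters can match both motifs over its full length. The CARE core was found in 3 of the 14 windows, those of ATF3, CHAC1 and PPP1R15B, against 3.62% of all 35116 windows, and the CRE in 1, that of PPP1R15A, against 1.85%. Each sequence is given 5′ to 3′ on the strand of its gene, with the motif in capitals, and the CHAC1 motif is the CARE core read on the opposite strand.
PPP1R15B: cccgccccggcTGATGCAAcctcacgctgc
ATF3: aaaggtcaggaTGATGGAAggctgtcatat
CHAC1: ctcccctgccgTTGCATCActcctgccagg
PPP1R15A: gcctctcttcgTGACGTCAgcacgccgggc
The PPP1R15B stretch lies at chr1:204412026-204412055 on the minus strand, with the motif 227 bases before the start and outside the annotated gene. The ATF3 stretch lies at chr1:212565205-212565234 on the plus strand, 191 bases before the start and outside the annotated gene. The CHAC1 stretch at chr15:40953251-40953280 and the PPP1R15A stretch at chr19:48872352-48872381, both on the plus strand, begin their motifs 209 and 58 bases before the RefSeq start and fall within untranslated exon sequence of other transcripts of the same genes in GENCODE 44. A match of letters is a description of the window and not a site shown to be bound, and of the genes without a match only these letters in these windows are described.

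Of the 10 members, 8 were higher in Y-320-treated than in untreated cells, none was lower, and EIF2AK1 and EIF2AK4 did not pass the threshold of 0.05 on the p adjusted over all genes in edgeR's quasi-likelihood test. The background was broad, since 51.5% of the 16580 genes tested were called in either direction, 26.2% higher and 25.4% lower. A rise of at least 1 on the log2 scale was less common and was seen in 7 members against 2.43% of all genes tested. The 3 treated libraries all lay above the 3 untreated ones for 8 members and in 29.8% of all genes, and all below them for 1 member, EIF2AK4, and in 29.4% of all genes. The median log2 fold change was 1.28 over the members and 0.00 over all genes tested, and among all genes ranked by log2 fold change ATF3, TRIB3 and CHAC1 held ranks 38, 66 and 81 and the 7 members that rose most ended at rank 364, ATF4. The exact two-sided permutation test of single values gave p = 0.1 for every member whose groups did not overlap, the smallest p that 3 against 3 libraries allow. In bulk RNA, a change of level per cell and a change in the share of cells that express a gene cannot be told apart. All values are relative to the rest of the library, so a change in total RNA per cell would not show in them.

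**Figure D1:**
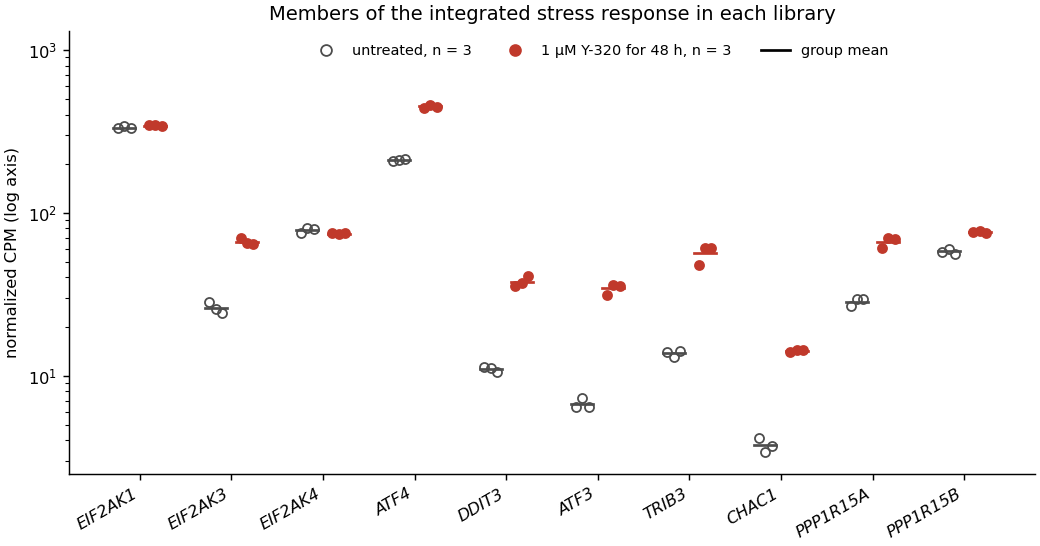
Normalized CPM (log axis) of the 10 members in each of the 3 untreated (open) and 3 Y-320-treated (filled) libraries, with bars at the group means. The groups are apart in 9 genes and overlap in EIF2AK1, and EIF2AK4 is the only gene of these whose treated libraries all lie below the untreated ones.

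Among the 3 kinase genes of the set, EIF2AK3 alone passed the test, at 2.54-fold its untreated level. EIF2AK3 (ENSG00000172071, chr2:88556741-88691518, minus strand of hg38) was measured at 28.3, 25.7 and 24.3 CPM in untreated replicates 1 to 3 and at 69.5, 65.1 and 64.3 CPM in treated replicates 1 to 3. Every treated library was above every untreated one, and the lowest treated value was more than 2 times the highest untreated value. The log2 fold change was 1.35 ± 0.055 (SE, 95% interval 1.22 to 1.47, n = 3 and 3), with an edgeR adjusted p of 2.26e-08. EIF2AK1 (ENSG00000086232, chr7:6022247-6059175, minus strand) stood at 330.0, 338.7 and 329.3 CPM without and 345.4, 344.7 and 338.5 CPM with Y-320. In CPM the ranges touched, as untreated replicate 2 exceeded treated replicate 3. In the levels per length (TPM) given below they did not, at up to 170.4 in untreated and at least 173.5 in treated libraries. The log2 fold change of 0.04 had a 95% interval of -0.01 to 0.10, or 0.995-fold to 1.07-fold, with an edgeR adjusted p of 0.143.

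EIF2AK4 (ENSG00000128829, chr15:39934115-40035591, plus strand) was measured at 75.2, 80.3 and 79.8 CPM in untreated and 74.7, 73.7 and 74.8 CPM in treated libraries. All treated values lay below the untreated ones, untreated replicate 1 at 75.2 CPM lying next to treated replicate 3 at 74.8 CPM. The log2 fold change was -0.08 ± 0.034 (SE, 95% interval -0.15 to -0.00094, n = 3 and 3), and the edgeR adjusted p was 0.0848. The gene was called lower without untreated replicate 1, at -0.11 with an edgeR adjusted p of 0.0206, and with upper-quartile scaling, at -0.10 with 0.0267, in 2 of 15 alternatives whose adjusted p ran from 0.0206 to 0.260. The fourth eIF2alpha kinase gene, EIF2AK2 (PKR), which senses double-stranded RNA, is not a member and fell from 128.3 ± 5.07 to 104.4 ± 3.47 CPM (SD, n = 3 and 3), a log2 fold change of -0.30 with an edgeR adjusted p of 6.60e-05.

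Differences between the changes of the kinase genes were examined as a ratio within each library. The log2 ratio of EIF2AK3 to EIF2AK1 counts was -3.68 ± 0.11 in untreated and -2.37 ± 0.051 in treated cells (SD, n = 3 each), a difference of 1.30. The log2 ratio of EIF2AK3 to EIF2AK4 moved from -1.59 ± 0.16 to -0.17 ± 0.058, a difference of 1.42. Neither ratio overlapped between the groups, and each gave an exact permutation p of 0.1, or 0.12 after adjustment over the 6 ratios tested, so that none of the 6 could reach 0.05.

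Per length, as estimated counts per kb of the canonical transcript, scaled as TPM (the same total in every library, over genes with a known length), EIF2AK1 was the most abundant kinase transcript in both conditions at 169.0 ± 1.42 and 176.0 ± 2.11 TPM (SD, n = 3 each). EIF2AK3 rose from 12.9 ± 1.07 to 33.1 ± 1.41 TPM, and EIF2AK4 stood at 31.7 ± 0.915 and 30.4 ± 0.213. Of the summed level of the 4 kinase genes, EIF2AK3 made up 5.32% ± 0.412 in untreated and 12.6% ± 0.411 in treated cells, while EIF2AK1 made up 69.7% ± 0.512 and 66.9% ± 0.439. The order of EIF2AK3 and EIF2AK4 and the size of these shares depend on the length used. With the median length of a gene's transcripts, EIF2AK3 stayed below EIF2AK4 in treated cells, at 20.03 ± 0.867 against 60.2 ± 0.444 TPM, and its share was 1.35% ± 0.111 in untreated and 3.30% ± 0.115 in treated cells. The values are shares of mRNA and say nothing of kinase activity.

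**Figure D2:**
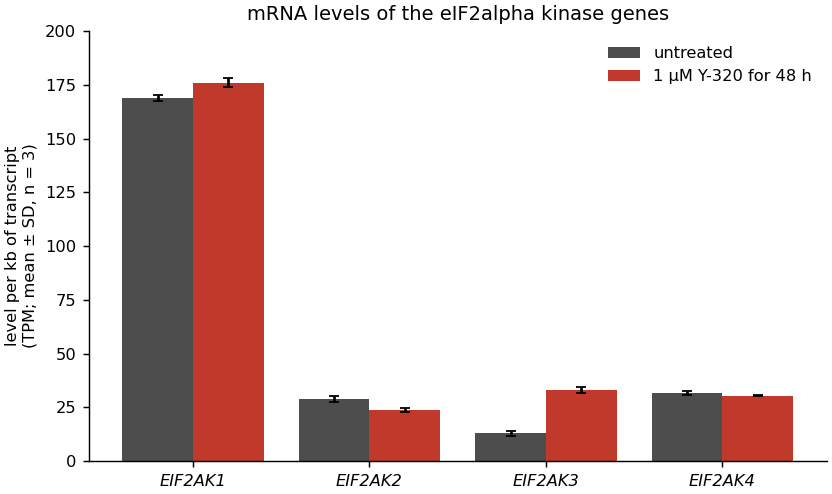
Levels of the eIF2alpha kinase genes in TPM by canonical transcript length, as mean bars with SD (n = 3), in untreated and Y-320-treated cells. EIF2AK1 is the tallest pair at 169.0 and 176.0, and EIF2AK3 goes from 12.9, the lowest of the 4, to 33.1.

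The transcription factor genes ATF4, DDIT3 and ATF3 were all higher with Y-320, with ATF4 at 2.13-fold, DDIT3 at 3.43-fold and ATF3 at 5.12-fold. ATF4 (ENSG00000128272, chr22:39519695-39522683, plus strand) stood at 207.3, 212.0 and 212.4 CPM in untreated and at 440.2, 457.4 and 448.4 CPM in treated libraries. The replicates of each condition lay close together and far from the other condition. Its log2 fold change was 1.09 ± 0.025 (SE, 95% interval 1.04 to 1.15, n = 3 and 3), with an edgeR adjusted p of 7.52e-10. ATF4 shares 26.4% of its 31-base words with other genes, among them the pseudogenes ATF4P1 to ATF4P4, so its counting is uncertain to that extent, but those 4 rows held at most 12.4 counts in any library against 4420 or more for ATF4.

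DDIT3 (ENSG00000175197, chr12:57516588-57521737, minus strand), which encodes the factor tied to cell death in prolonged stress, was measured at 11.3, 11.2 and 10.5 CPM in untreated and at 35.5, 36.9 and 40.6 CPM in treated libraries. The groups were well apart. A log2 fold change of 1.78 ± 0.065 (SE, 95% interval 1.63 to 1.92, n = 3 and 3) was fitted, with an edgeR adjusted p of 1.01e-08. DDIT3 shares 5.43% of its 31-base words with other genes, including the unnamed ENSG00000285133, which held at most 21.8 counts in a library and summed to 5.17 counts over the untreated and 34.7 over the treated ones. DDIT3 also overlaps MARS1 and MBD6 on the opposite strand, as EIF2AK1 overlaps AIMP2 and ANKRD61, EIF2AK3 overlaps EIF2AK3-DT and PPP1R15B overlaps PPP1R15B-AS1; reads of such partners cannot be told apart where counting does not use strand, which is not stated in the sources used here.

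ATF3 (ENSG00000162772, chr1:212565334-212620777, plus strand), a stress-induced factor of the ATF/CREB family, had the largest log2 fold change of the 10 genes. It stood at 6.43, 7.24 and 6.39 CPM in untreated and at 31.3, 36.0 and 35.4 CPM in treated libraries, without overlap. The log2 fold change was 2.36 ± 0.078 (SE, 95% interval 2.18 to 2.53, n = 3 and 3), rank 38 of all genes tested, with an edgeR adjusted p of 5.14e-09. No 31-base word of ATF3 occurs in another gene.

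Relative to ATF4, both factors were higher in every treated library than in any untreated one. The log2 ratio of DDIT3 to ATF4 counts went from -4.26 ± 0.070 to -3.58 ± 0.096 (SD, n = 3 each), a difference of 0.68, and that of ATF3 to ATF4 from -4.98 ± 0.096 to -3.71 ± 0.085, a difference of 1.27. Neither overlapped between conditions, with an exact permutation p of 0.1 each and 0.12 after adjustment over the 6 ratios.

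The ATF4-dependent genes TRIB3 and CHAC1 were 4.11-fold and 3.78-fold higher in treated cells. TRIB3 (ENSG00000101255, chr20:362835-397559, plus strand) was measured at 14.0, 13.0 and 14.1 CPM in untreated and at 47.4, 60.9 and 60.7 CPM in treated libraries. Treated replicate 1 was the lowest of its group, which gave TRIB3 the widest relative spread of the 10 genes with Y-320 (a coefficient of variation of 13.7%), yet it was above every untreated library. Its log2 fold change was 2.04 ± 0.10 (SE, 95% interval 1.81 to 2.27, n = 3 and 3), with an edgeR adjusted p of 8.39e-08.

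CHAC1 (ENSG00000128965, chr15:40952962-40956512, plus strand) had the lowest counts of the set. It stood at 91, 71 and 82 counts, or 4.12, 3.40 and 3.72 CPM, in untreated libraries and at 320, 312 and 318 counts, or 14.0, 14.3 and 14.4 CPM, in treated ones. The treated libraries were nearly equal and all clear of the untreated ones. Between the conditions CHAC1 differed by a log2 fold change of 1.92 ± 0.088 (SE, 95% interval 1.72 to 2.12, n = 3 and 3), with an edgeR adjusted p of 4.92e-08. The log2 ratio of TRIB3 to DDIT3 was 0.32 ± 0.11 in untreated and 0.57 ± 0.15 in treated cells (SD, n = 3 each) and overlapped between the conditions, with an exact permutation p of 0.2. As for the other ratios, this test cannot go below 0.1 with 3 libraries each. It therefore could not decide whether the changes of TRIB3 and DDIT3 differed.

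Both phosphatase subunit genes were higher with Y-320, the inducible PPP1R15A at 2.33-fold and the constitutive PPP1R15B at 1.32-fold. PPP1R15A (ENSG00000087074, chr19:48872212-48876059, plus strand) was measured at 26.6, 29.4 and 29.3 CPM in untreated and at 60.6, 70.0 and 68.6 CPM in treated libraries. Replicate 1 was the lowest in each condition and the conditions did not overlap. Its log2 fold change was 1.22 ± 0.062 (SE, 95% interval 1.08 to 1.36, n = 3 and 3), with an edgeR adjusted p of 9.54e-08.

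PPP1R15B (ENSG00000158615, chr1:204396492-204411887, minus strand) stood at 57.7, 60.0 and 55.8 CPM in untreated and at 76.2, 76.7 and 75.5 CPM in treated libraries. Its fold was the smallest of the 8 genes that rose, but the gap between the groups exceeded the spread within either. The log2 fold change was 0.40 ± 0.034 (SE, 95% interval 0.32 to 0.47, n = 3 and 3), with an edgeR adjusted p of 4.98e-06, close to the median absolute log2 fold change of 0.33 over all genes called. The log2 ratio of PPP1R15A to PPP1R15B counts went from -1.03 ± 0.093 to -0.20 ± 0.11 (SD, n = 3 each), a difference of 0.83 without overlap, with an exact permutation p of 0.1 and 0.12 after adjustment over the 6 ratios.

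**Figure D3:**
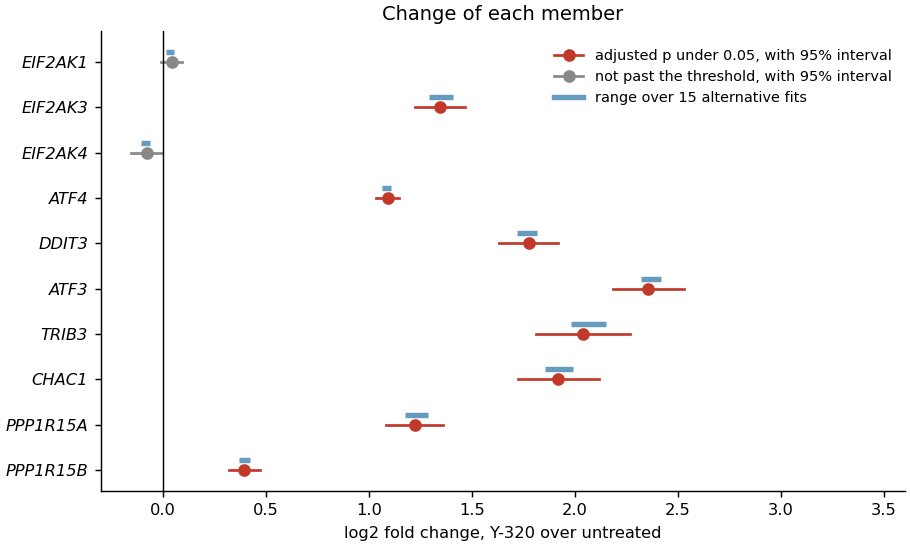
Log2 fold change of each member, Y-320 over untreated, with its 95% interval (thin lines) and the range of its value over 15 alternative fits (thick blue lines). The values run from -0.08 in EIF2AK4 to 2.36 in ATF3, and EIF2AK1 and EIF2AK4 are drawn in grey as not past the threshold.

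**Figure D4:**
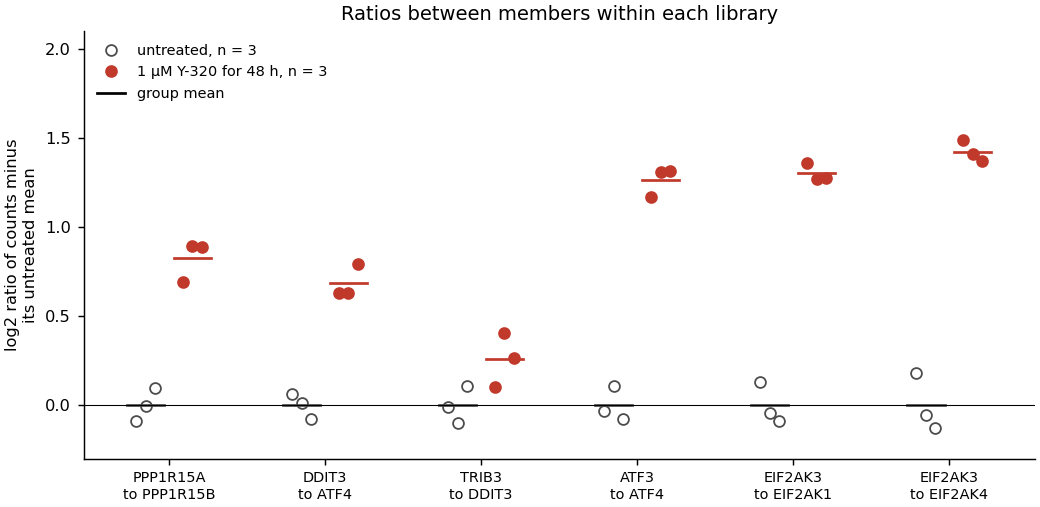
Log2 ratio of the counts of 2 members within each library, minus its mean in untreated cells, for untreated (open) and Y-320-treated (filled) libraries with bars at the group means. In 5 of the 6 ratios the groups are apart, by 0.68 to 1.42, and those of TRIB3 to DDIT3 overlap.

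Levels per canonical length placed ATF4 first and CHAC1 last in both conditions. In untreated cells ATF4 stood at 332.5 ± 3.11 TPM (SD, n = 3), followed by EIF2AK1, EIF2AK4 at 31.7 ± 0.915, DDIT3 at 27.3 ± 1.07, PPP1R15A at 27.1 ± 1.30, PPP1R15B at 24.6 ± 0.755, TRIB3 at 13.0 ± 0.698, EIF2AK3 at 12.9 ± 1.07, ATF3 at 7.72 ± 0.489 and CHAC1 at 5.53 ± 0.579. The libraries of DDIT3 and PPP1R15A overlapped, as did those of TRIB3 and EIF2AK3, so their order is not settled. In treated cells ATF4 stood at 715.8 ± 14.3, followed by EIF2AK1, DDIT3 at 94.4 ± 6.50, PPP1R15A at 64.0 ± 4.89, TRIB3 at 54.2 ± 7.44, ATF3 at 40.0 ± 2.98, EIF2AK3 at 33.1 ± 1.41, PPP1R15B at 32.8 ± 0.300, EIF2AK4 at 30.4 ± 0.213 and CHAC1 at 21.2 ± 0.269. Here the neighbours that overlapped were PPP1R15A with TRIB3 and EIF2AK3 with PPP1R15B. By canonical length EIF2AK4 stood in the third place in untreated and in the ninth in treated cells, but by median length in the third in both. With the median length, EIF2AK1 also came before ATF4 in both conditions (494.1 against 173.3 in untreated cells).

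Related genes of the pathway were taken from lists that hold none of the members. The kinases' substrate eIF2 and its exchange factor eIF2B had small changes, with 5 of 8 subunit genes higher, none lower and a median log2 fold change of 0.18. EIF2B2 rose by 0.48 on the log2 scale, from 26.2 ± 1.85 to 36.4 ± 1.85 CPM (SD, n = 3 and 3), and EIF2S2 and EIF2S3, the beta and gamma subunits of eIF2, by 0.32 each, with edgeR adjusted p of 6.57e-05, 8.41e-06 and 7.98e-07. EIF2B4 rose by 0.19 at an edgeR adjusted p of 0.00927 that was lost with DESeq2 (adjusted p 0.0681), and EIF2B3 by 0.17 at an edgeR adjusted p of 0.0479 that was lost in 10 of 15 alternatives, among them those without replicate 2 or 3 of either condition (adjusted p from 0.0356 to 0.252 over all 15). The gene of the phosphorylated subunit itself, EIF2S1, had a log2 fold change of -0.05, with an edgeR adjusted p of 0.246, and EIF2B1 and EIF2B5 stood at 0.06 and -0.08 and were not called.

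Regulators of the kinases were higher in 5 of 8 cases and lower in 1, with a median of 0.16. DNAJC3, an inhibitor of EIF2AK3 and EIF2AK2, rose from 90.1 ± 3.40 to 125.2 ± 0.945 CPM (SD, n = 3 and 3) and by 0.47 on the log2 scale, and GCN1, which activates EIF2AK4, by 0.32, with edgeR adjusted p of 7.62e-07 and 1.54e-06. NCK1 and PRKRA rose by 0.21 each. DELE1, the mitochondrial messenger to EIF2AK1, rose by 0.12 and the protease OMA1, which cleaves it, fell by 0.27, with edgeR adjusted p of 0.0261 and 0.0242. The DELE1 call was lost in 6 of 15 alternatives, the one with upper-quartile scaling and those without untreated replicate 1 or 3 or any treated replicate (edgeR adjusted p up to 0.0992). The OMA1 call was lost in 4, with DESeq2 and without untreated replicate 2 or treated replicate 1 or 2 (adjusted p up to 0.0936). IMPACT and TARBP2 were not called. Of the catalytic subunits of protein phosphatase 1, PPP1CB rose by 0.11, PPP1CC fell by 0.14 and PPP1CA stood at 0.00.

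Among the paralogues of the members, 1 of 6 was higher and 3 were lower, with a median of -0.16. TRIB1 rose by 0.66, from 35.2 ± 1.09 to 55.6 ± 0.442 CPM (SD, n = 3 and 3), with an edgeR adjusted p of 1.73e-07. EIF2AK2 and JDP2, the closest relative of ATF3, fell by 0.30 each, and CHAC2 fell by 0.35 at an edgeR adjusted p of 0.0363 that was lost in 5 of 15 alternatives, among them those without untreated replicate 1 or treated replicate 1 or 3 (adjusted p up to 0.140). TRIB2 at 0.11 and ATF5 at -0.03 were not called.

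The ATF4 targets listed here outside the set were all higher, in 23 of 23 genes tested. Their median log2 fold change was 1.06, with a range of 0.50 to 2.48. The other gene listed, FGF21, had at most 3 counts in any library and was not tested. The list does not hold every ATF4 target. ATF5 is not in it and was counted among the paralogues, at -0.03 with an edgeR adjusted p of 0.701. The largest rises were in VLDLR, a lipoprotein receptor, at 2.48, INHBE, a subunit of activin, at 2.46, and ADM2, a peptide hormone, at 2.37, and the smallest were in the amino acid transporter genes SLC3A2 at 0.55 and SLC7A5 at 0.50. Of 4 targets attributed to DDIT3, 3 rose: the apoptosis gene BBC3 by 1.09, from 6.43 ± 0.640 to 13.7 ± 0.461 CPM (SD, n = 3 and 3), the oxidase gene ERO1A by 0.71 and the death receptor gene TNFRSF10B by 0.44. The fourth, BCL2L11, stood at -0.06 with an edgeR adjusted p of 0.413.

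Target genes of ATF6 and XBP1, the other branches of the unfolded protein response, were also higher, in 17 of 17 cases with a median of 0.55. HERPUD1 rose by 1.29, HSPA5, the main chaperone of the endoplasmic reticulum, by 1.04 and XBP1 by 0.96, while PDIA6 rose by 0.12 and SEC61B by 0.13. The SEC61B call, at an edgeR adjusted p of 0.0277, was lost in 6 of 15 alternatives, among them those without replicate 2 or 3 of either condition (adjusted p up to 0.108). These lists describe counts and medians only, beside 26.2% of all genes called higher, and were not compared by a test. The place of a gene in a list does not show which factor raised it.

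**Figure D5:**
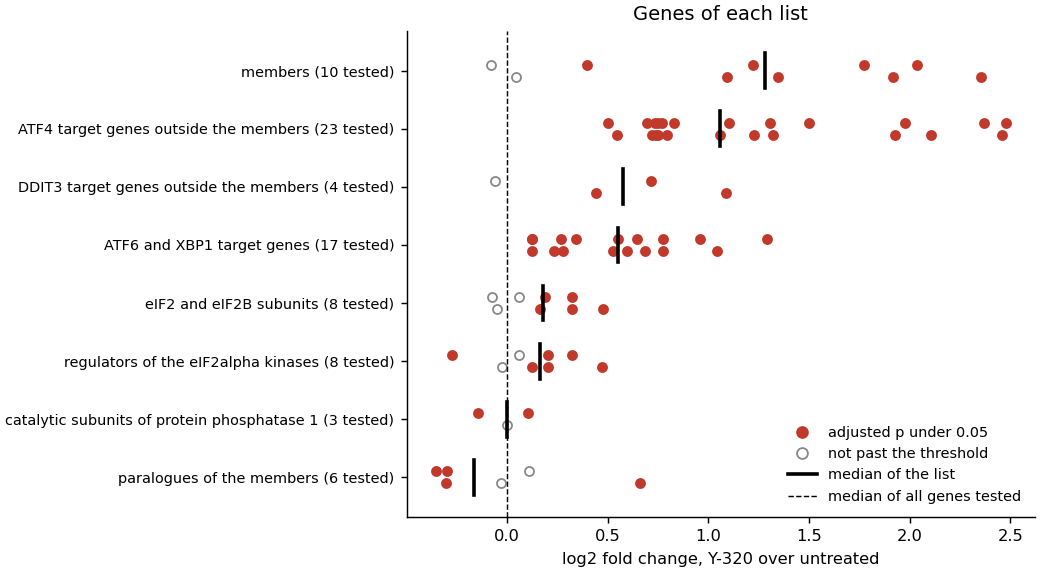
Log2 fold change of each gene tested, Y-320 over untreated, by list, with genes past the adjusted p of 0.05 filled, the list medians as vertical bars and the median of all genes tested as a dashed line. The medians run from -0.16 for the paralogues to 1.28 for the members, and every gene of the ATF4 list lies at 0.50 or above.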

How the data were processed

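RNA from 6 HDQ-P1 samples, 3 untreated and 3 treated with Y-320, was sequenced by the authors, who deposited estimated counts per gene that were not normalized. The submitters' processing notes name kallisto 0.46.1 and hg38, and the Ensembl release is not given in the sources used here. The study combined several unnamed pipelines, which could not be repeated. Since kallisto shares ambiguous reads among transcripts, 70.4% of non-zero values were not whole (tolerance 0.001), and a gene with near-identical copies can lose or gain counts.

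Counts were rounded, and 30063 of 40295 identifiers were matched to a symbol in a table of gene names. Rows without one held 3.47% to 3.72% of counts. edgeR 4.0.16 in R 4.3.3 kept genes by filterByExpr (minimum count 10, total 15), scaled by TMM (factors 0.992 to 1.01) and ran the quasi-likelihood test on all genes with no replicate block. P-values were adjusted by Benjamini-Hochberg over all genes tested and called under 0.05. The fit was also run on simulated data with far fewer changed genes than were called here, so that run does not cover so broad a change. Ratios and single genes were compared by two-sided exact permutation tests in scipy 1.17.1, 6 ratios adjusted together. Positions and lengths came from GENCODE 44 on hg38. CPM used TMM library sizes, and levels per length used canonical transcripts. DESeq2 1.42.0, limma 3.58.1 and other scalings, filters and left-out libraries were alternatives. All members and all genes of the short lists are named, and of the ATF4 and the ATF6 and XBP1 lists the 3 largest and 2 smallest changes. The members and the lists were chosen with earlier results of these data known.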

Additional observations from a re-analysis of the deposited data

How the results depend on the processing

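All fits of the 15 alternatives called 8 members higher, 7 of them by at least 1 on the log2 scale, and every called member kept its direction. EIF2AK4 changed its call: upper-quartile scaling gave -0.10 and 1 member called lower, and leaving out single libraries gave -0.11 to -0.060 and 0 to 1 members called lower. DESeq2 called 3 eIF2 and eIF2B genes higher, without EIF2B3 and EIF2B4, and 0 kinase regulators lower. Upper-quartile scaling called 1 eIF2 or eIF2B gene lower, EIF2B5, which was also called without untreated replicate 3, a range of 0 to 1 over left-out libraries. The 1 kinase regulator called lower, OMA1, was lost without untreated replicate 2, Y-320 replicate 1 or Y-320 replicate 2, a range of 0 to 1. The cause of these changes was not tested. Over all genes, 3405 (DESeq2) to 4539 (total-count scaling) were called higher and 3278 (DESeq2) to 4746 (upper-quartile scaling) lower. With the replicate number as a block, 4285 genes were called higher and 4159 lower, 8 members higher and 0 lower. Over the more abundant genes, deviations of same-numbered libraries from their group means were nearly uncorrelated (correlations of -0.019, 0.030 and -0.029). Whether libraries of the same number shared a culture day or batch cannot be decided from these correlations. With 3 libraries each, the exact tests cannot go below 0.1, and CHAC1, at 71 to 91 counts in untreated libraries, has the least depth of the members.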
